A study of Mus musculus with 8 samples.

Results

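Of 27239 stretches with a called peak in at least 2 tailbud libraries, 619 (2.27%) were left out of the authors' count tables, and these 619 uncounted intervals are described here. Whether the signal at them reflects open chromatin was not tested. The assay was ATAC-seq, which reads out where the transposase Tn5 can reach the DNA, on mouse tailbuds of embryonic day 9.5 from the outbred CD-1 background. The groups were wild type (WT, genotype WT/WT) and homozygous Danforth's short tail (Sd/Sd), with 4 libraries each, called WT 1 to 4 and Sd/Sd 1 to 4 after their replicate numbers. Sd is a spontaneous semidominant mutation that shortens the tail and vertebral column, and tailbuds of 2 embryos were pooled where material was short. An interval was chosen as follows: the authors' broad peaks with a q of at most 0.05 were merged over the 8 libraries wherever they shared at least 1 bp, merged intervals with a peak in 2 or more libraries were kept as shared, and an uncounted interval overlapped no row of the count tables. The intervals were thus chosen by peak presence and q, with no account of genotype. The other 26620 shared intervals each overlapped a counted region, and none of the 26620 counted regions lay outside the shared intervals. Why the 619 were left out is not stated by any source used here.

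As background, a broad peak marks a stretch where reads lie more densely than in its surroundings, and its fold enrichment is the ratio of the read pile-up to a local background. The q-value also depends on how many reads lie there, so a stretch with many reads can reach a very small q at a low fold enrichment. Mouse chromosomes are acrocentric, and their assembled sequence begins beside the centromere, next to satellite repeats. Satellite arrays, recent segmental duplications and nuclear copies of mitochondrial DNA are kinds of sequence where near-identical copies share short reads. No genome of the build of these files (mm9) was used here, so no gene, repeat class or base sequence is assigned to any interval.

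The libraries held between 2873918 and 4180434 counts over the counted regions and between 18682 and 30387 deposited peaks. Nothing in the labels says that replicates came from separate litters, so p-values measure only the spread between these libraries.

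Uncounted intervals occurred on all 19 autosomes, the only chromosomes with peaks in these files, but in unequal shares. On chromosome 1, 17 of 2139 shared intervals were uncounted (0.795%). On chromosome 5 it was 67 of 1641 (4.08%) and on chromosome 8 it was 52 of 1463 (3.55%). On both of the latter a few dense tracts made up much of the number, since 29 of the 67 and 41 of the 52 stood in runs of 5 or more. Chromosomes 19 (18 of 567, 3.17%) and 15 (27 of 913, 2.96%) had high shares with no such run. Between 10 and 30 Mb of chromosome 2, 4 of the 237 shared intervals (1.69%) were uncounted. No uncounted interval fell between 18 and 21 Mb, around the Danforth insertion. At so low a share a short stretch can easily hold none. The number of shared intervals between 18 and 21 Mb is not given here, so the absence cannot show whether this stretch differs from its surroundings.

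**Figure D1:**
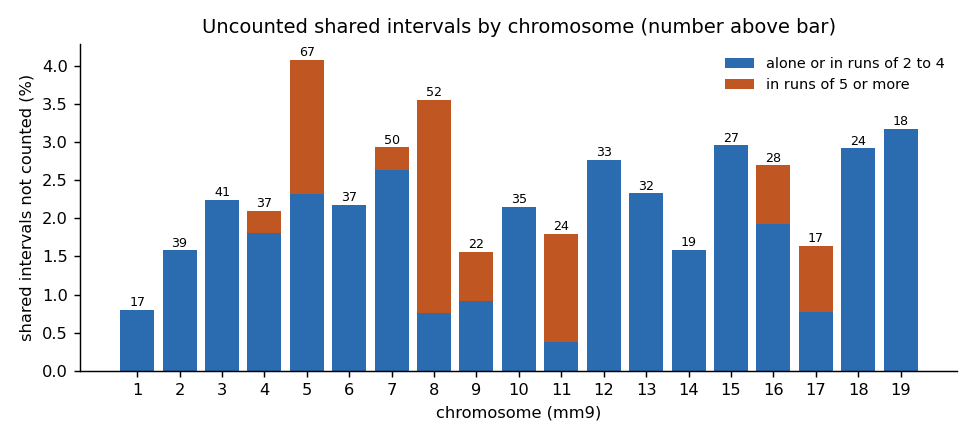
Percentage of the shared intervals of each autosome (mm9) that were not counted, with the number of uncounted intervals above each bar. The share ran from 0.795% on chromosome 1 to 4.08% on chromosome 5, and runs of 5 or more (orange) made up 41 of the 52 on chromosome 8 and 19 of the 24 on chromosome 11.

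The start of the assembled chromosomes was rich in uncounted intervals. Of 281 shared intervals that began before 4 Mb, 64 were uncounted (22.8%), against 2.27% of all shared intervals. They held 10.3% of the uncounted intervals and 0.815% of the counted ones. Chromosome 11 had 22 of the 64, chromosomes 9 and 17 had 9 each and chromosome 16 had 8. The 64 lay on 13 of the 19 autosomes, and chromosomes 1, 2, 5, 10, 14 and 15 had 0. The 64 had a median fold enrichment of 2.76 and a median −log10 q of 4.18, while the 217 counted intervals of the same stretches had 3.54 and 3.66. By chromosome the median fold enrichment of the uncounted ones was 1.53 on chromosome 11, 2.65 on 17, 3.42 on 16 and 4.59 on 9. Away from the chromosome start the order of the fold enrichments was the opposite, with a median of 3.89 over 555 uncounted and 3.33 over 26403 counted intervals.

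Along the chromosomes the uncounted intervals fell into 429 runs, where a run is an unbroken series of uncounted intervals with no counted interval between them. A single interval with counted neighbours on both sides was the usual case, with 371 of the 619. Another 123 lay in 48 runs of 2 to 4, and 125 lay in 10 runs of 5 or more. The 3 longest runs held 77 intervals. An uncounted interval had another within 10 kb in 191 cases (30.9%), although uncounted intervals occurred in only 325 of the 2370 megabases that held any shared interval. In 9 of these megabases the uncounted intervals outnumbered the counted ones.

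The longest run lay on chromosome 8 at chr8:19862307-20036752, where 34 uncounted intervals followed each other over 174446 bp. They covered 24.8% of this stretch, were separated by a median gap of 2864 bp, and had a median fold enrichment of 2.85. Peaks were called at 29, 26, 24 and 26 of the 34 in WT 1 to 4 and at 29, 30, 30 and 32 in Sd/Sd 1 to 4. The ranges met at 29, and the library with 32 was also that with the most peaks over the genome. A second run of 7 lay at chr8:19756176-19800989, and the megabase from 20 to 21 Mb held 11 uncounted intervals and 0 counted ones.

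Within these runs of chromosome 8, 2 intervals stood well above the rest. At chr8:19783941-19785268 the fold enrichment was 9.29, 9.18, 8.65 and 9.22 in WT 1 to 4 and 8.78, 8.75, 8.09 and 8.47 in Sd/Sd 1 to 4. At chr8:20019636-20020618 it was 5.60, 5.46, 5.38 and 5.75 in WT and 5.62, 5.71, 5.91 and 6.05 in Sd/Sd. The genotypes overlapped at both, and both were chosen after their values were seen.

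On chromosome 5 a run of 24 lay at chr5:14933283-15054962, with a median fold enrichment of 2.58. Its intervals numbered 23, 19, 20 and 24 with a peak in WT 1 to 4, and 20, 19, 22 and 21 in Sd/Sd 1 to 4, so the genotypes overlapped. The megabases from 14 to 15 Mb and from 15 to 16 Mb of this chromosome held 17 and 26 uncounted intervals beside 16 and 13 counted ones. In the megabase from 15 to 16 Mb, 20 of the 26 uncounted and 7 of the 13 counted intervals had a peak in all 8 libraries.

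The run of chromosome 11 at chr11:3023739-3099993 had the lowest median fold enrichment of the 3 longest. Its 19 intervals had a median of 1.49 and a median width of 1321 bp, and they covered 38.1% of its 76255 bp. WT 1 to 4 had a peak at 14, 15, 13 and 14 of the 19, and Sd/Sd 1 to 4 at 15, 15, 13 and 17. Of all 27239 shared intervals, a median fold enrichment under 2 was reached by 23 uncounted (3.72%) and 12 counted ones (0.0451%), and 20 of these 23 lay in runs of 5 or more. In the chromosome 11 run 2 intervals stood above 2. The first, chr11:3023739-3024298, had 5.63, 6.09, 5.86 and 6.08 in WT and 6.61, 6.10, 5.51 and 6.40 in Sd/Sd. The other, chr11:3092814-3094134, had a median of 2.263.

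**Figure D2:**
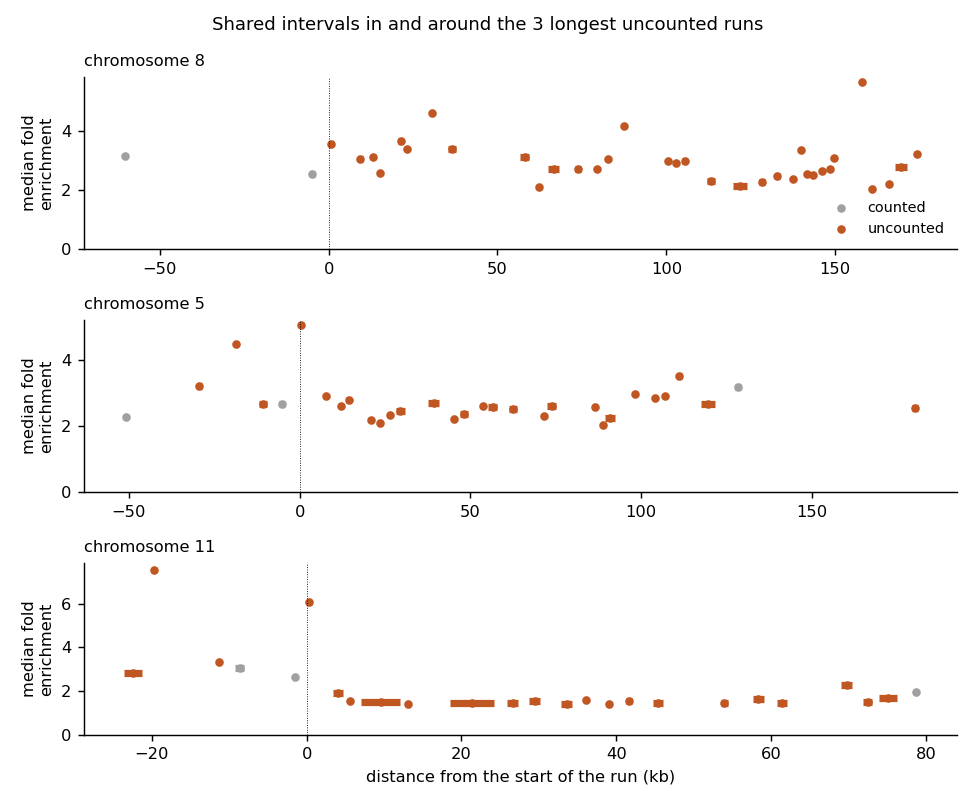
Median fold enrichment (y axis) of each shared interval against its distance in kb from the first base of the run (x axis) for the runs of 34, 24 and 19 uncounted intervals. Points mark interval centres and bars their width. Uncounted intervals (orange) follow each other with no counted interval (grey) between them, at medians of 2.85 on chromosome 8, 2.58 on chromosome 5 and 1.49 on chromosome 11.

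At the start of chromosome 9, 9 uncounted intervals between chr9:3000027 and 3038339 had a peak in each of the 8 libraries. Their median fold enrichment was 4.59 and ranged from 2.18 to 8.88. At chr9:3006591-3007009, the highest, it was 8.90, 8.84, 8.56 and 9.07 in WT 1 to 4 and 8.85, 9.30, 8.75 and 8.94 in Sd/Sd 1 to 4. The runs at the starts of chromosomes 17 (9 intervals) and 16 (8 intervals) were less regular, with 3 and 4 intervals that had a peak in all 8 libraries.

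Not every megabase rich in uncounted intervals looked like these tracts. From 80 to 81 Mb of chromosome 10, 9 uncounted intervals lay among 38 counted ones, 5 of them as single intervals. Their median fold enrichment was 3.70 (3.22 to 4.21), next to 3.55 for the counted intervals of the same megabase, and their median width was 1155 bp against 644 bp. A peak was present in all 8 libraries at 8 of the 9 uncounted and 20 of the 38 counted intervals.

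Uncounted intervals were wider in the median than counted ones, and their 5th to 95th percentiles of fold enrichment spanned a broader range. The median width was 1068 bp (5th to 95th percentile 313.7 to 2430.5 bp) for uncounted and 874.5 bp (291 to 1868.05 bp) for counted intervals. The median fold enrichment, taken over the peaks of each interval, was 3.82 (2.14 to 8.13) against 3.33 (2.72 to 4.88). Single uncounted intervals had a median of 4.16, those in runs of 2 to 4 had 3.41 and those in runs of 5 or more had 2.73. Width said little about fold enrichment, with a rank correlation across intervals of -0.11 over the 619 uncounted and 0.087 over the 26620 counted ones. Intervals share libraries and depth, so these correlations are descriptions.

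**Figure D3:**
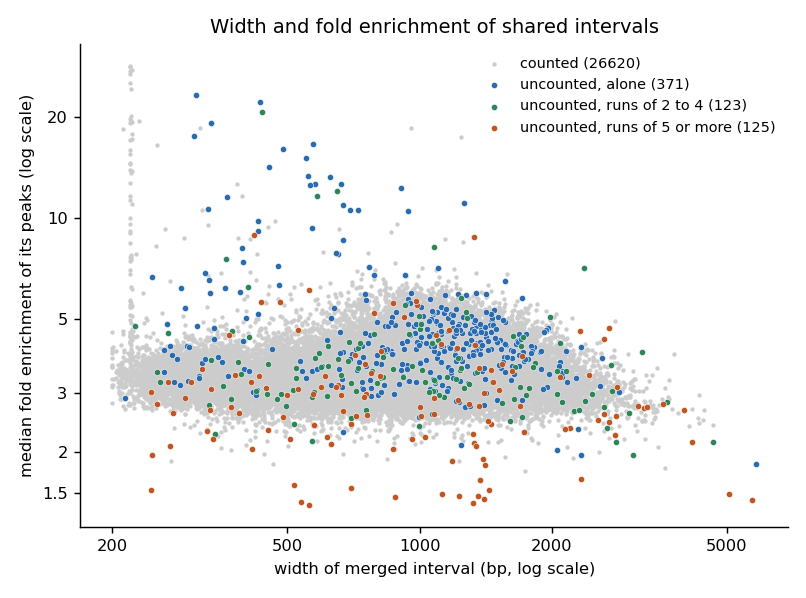
Width in bp (x axis, log scale) and median fold enrichment (y axis, log scale) of each shared interval. Counted intervals are grey, and uncounted ones are blue (single), green (runs of 2 to 4) or orange (runs of 5 or more). The 32 uncounted intervals at a fold enrichment of 8 or more are 306 to 1328 bp wide, and 20 of the 23 under 2 stand in runs of 5 or more.

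Each library gave the same order of the classes when its own peaks were compared. The median fold enrichment of peaks in uncounted intervals was 4.07, 3.93, 3.84 and 4.05 in WT 1 to 4 and 3.94, 3.89, 3.85 and 3.92 in Sd/Sd 1 to 4. For peaks in counted intervals it was 3.56, 3.52, 3.57 and 3.59 in WT and 3.49, 3.47, 3.49 and 3.4002 in Sd/Sd. Uncounted peaks were higher in 8 of 8 libraries, by 1.12-fold (log2 ratio 0.16 ± 0.031, SD, n = 8, exact sign-flip permutation test, two-sided, p = 0.00781, the smallest that 8 libraries allow, adjusted over 2 comparisons 0.00781). Both classes had passed the same q threshold. All 8 libraries measured the same intervals, so this p and that for width below speak only of agreement between libraries. With all deposited peaks, whose q reached 0.0997, the uncounted intervals numbered 3028 and the direction turned (log2 ratio -0.27, exact sign-flip permutation test, adjusted p = 0.0156). Nearly all counted regions had exactly the bounds of an interval shared at a q of at most 0.05. Intervals shared only through weaker peaks were thus almost all uncounted by construction, so this setting cannot test the class difference.

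Peaks in uncounted intervals were also wider. Their median width was 750, 716, 756.5 and 739 bp in WT 1 to 4 and 788, 707.5, 746 and 780.5 bp in Sd/Sd 1 to 4. Counted peaks had medians of 560 to 597 bp over the 8 libraries, which do not meet the range of the uncounted ones. The ratio was 1.298-fold (log2 ratio 0.38 ± 0.044, SD, n = 8, exact sign-flip permutation test, two-sided, p = 0.00781, adjusted 0.00781). With all deposited peaks, where the added intervals were almost all uncounted by construction, the log2 ratio was -0.0056.

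**Figure D4:**
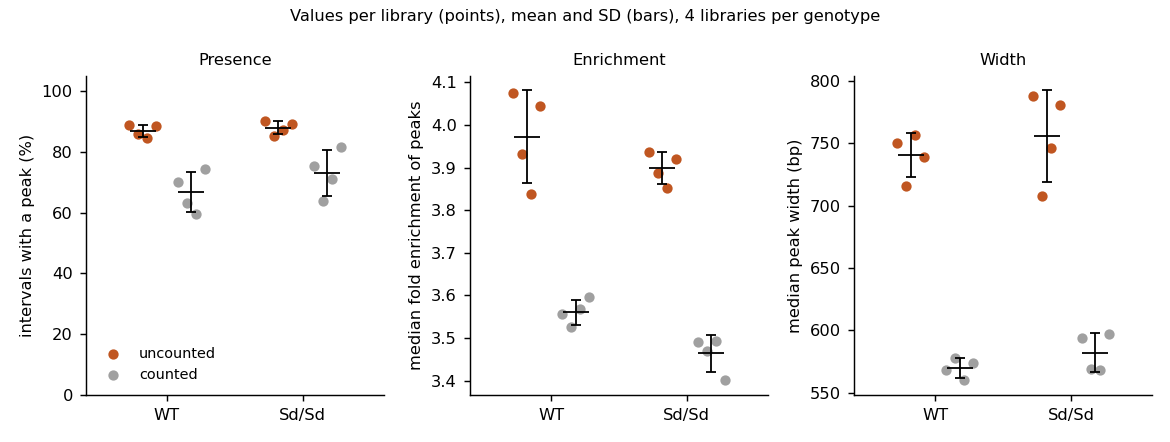
Percentage of uncounted (orange) and counted (grey) intervals with a peak, median fold enrichment of peaks and median peak width in bp (y axes) in the 4 WT and 4 Sd/Sd libraries (x axis). Points are libraries, and bars give the mean and SD. Uncounted intervals lie above counted ones in each panel. The genotypes overlap except in the fold enrichment of counted peaks, where WT ranged from 3.52 to 3.59 and the Sd/Sd libraries from 3.4002 to 3.49. The axes for fold enrichment and width do not start at 0.

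The strongest enrichments of the whole peak set held many uncounted intervals. By median fold enrichment, 3 of the 10 and 35 of the 100 highest shared intervals were uncounted, and the highest of all, at 28.5, was counted. By median −log10 q it was 10 of the 10 and 43 of the 100 highest, where the uncounted share of all shared intervals was 2.27%. A median −log10 q of 100 or more was found at 23 uncounted (3.72%) and 17 counted intervals (0.0639%). Since q and presence chose the shared intervals, these counts are descriptions. Of 32 uncounted intervals with a median fold enrichment of 8 or more, 31 had a peak in all 8 libraries and 0 were narrower than 250 bp, with widths of 306 to 1328 bp. Of the 54 counted intervals that reached 8, 53 had a peak in all 8 libraries and 34 were narrower than 250 bp.

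The uncounted interval of highest fold enrichment was chr9:24346394-24346702, 309 bp wide. Its fold enrichment was 24.0, 22.9, 23.7 and 24.5 in WT 1 to 4 and 22.9, 22.9, 22.1 and 25.2 in Sd/Sd 1 to 4. The genotypes overlapped there, and no other uncounted interval lay within 2 Mb.

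The second, chr6:103598954-103599386, had the highest q score of all shared intervals, with a −log10 q of 2050.8 to 2346.71. Its fold enrichment was 22.3, 22.2, 22.2 and 22.2 in WT and 22.4, 22.1, 22.2 and 22.2 in Sd/Sd, a coefficient of variation of 0.376% over the 8 libraries. At chr9:35112705-35113275 the values were as steady, from 16.65 to 16.77 (0.250%). At chr12:3109781-3110217, near the start of the chromosome, they ran from 20.66 to 21.01.

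Among the other 6 of the 10 highest, the coefficient of variation ran from 2.79% at chr17:36368098-36368649 to 12.1% at chr19:58187700-58188189, and it was 4.30% at chr9:24346394-24346702. At chr19:58187700-58188189, which lay 339513 bp from the nearest counted interval, the values were 15.5, 13.5, 12.6 and 17.1 in WT and 15.7, 18.1, 17.3 and 16.5 in Sd/Sd. At chr18:13107656-13108108 they were 15.9, 14.8, 14.2 and 13.6 in WT and 11.7, 16.6, 14.2 and 14.1 in Sd/Sd. The intervals chr4:70039056-70039390, chr16:91534735-91535040, chr17:36368098-36368649 and chr18:40467602-40468157 had medians of 19.3, 17.6, 15.1 and 13.3. In all 10 the libraries of the genotypes overlapped.

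The fold enrichment varied least between libraries where −log10 q was highest. A steady ratio to a local background need not mean steady reads. At chr6:103598954-103599386 the ratio varied by 0.376%, while −log10 q ran from 2050.8 to 2346.71. How far the ratio can move at such intervals was not tested. Over uncounted intervals with a peak in all 8 libraries, the median coefficient of variation of fold enrichment was 2.95% at a −log10 q of 100 or more (23 intervals) and 8.99% below 5 (139 intervals). Counted intervals of the same classes had 7.79% (17 intervals) and 9.35% (4879 intervals). Peak bounds also varied less in the uncounted class. Where each of the 8 libraries had exactly 1 peak, the part covered in all 8 was a median of 55.0% of the merged interval for 413 uncounted intervals and 39.9% for 10361 counted ones.

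A low fold enrichment with a very small q was found at 8 uncounted and 2 counted intervals, taking a fold enrichment under 3 and a −log10 q of 10 or more. On chromosome 2 a run of 3 held a pair of these. The interval chr2:98502386-98503084 had a median −log10 q of 278 at a median fold enrichment of 2.52. The interval chr2:98505101-98505442 had a median −log10 q of 200 and fold enrichments of 2.22, 2.28, 2.14 and 2.28 in WT 1 to 4 and 2.30, 2.22, 2.04 and 2.34 in Sd/Sd 1 to 4. The remaining interval of the run, chr2:98506344-98507583, was not of this kind and had a median −log10 q of 1799 at a fold enrichment of 5.67 to 5.83.

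The 5 widest uncounted intervals had fold enrichments at the low end and a peak in all 8 libraries. The widest, chr17:39979958-39985795, spanned 5838 bp, against 4648 bp for the widest counted interval. Its fold enrichment was 1.84, 1.84, 1.82 and 1.84 in WT and 1.83, 1.84, 1.83 and 1.81 in Sd/Sd, at a median −log10 q of 25.3. Its nearest counted interval lay 202713 bp away. The next, chr11:3042308-3048004 and chr11:3030796-3035843, belonged to the run of chromosome 11 and had medians of 1.43 and 1.49. The other 2 were chr4:3006852-3011505 and chr8:19982002-19986166, each with a median of 2.14.

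Uncounted intervals were found again in more libraries than counted ones. A peak in all 8 libraries was present at 437 of 619 uncounted (70.6%) and 10653 of 26620 counted intervals (40.0%), and a peak in exactly 2 at 33 (5.33%) and 4815 (18.1%). The gap was seen at low fold enrichment and closed at higher values. At a median fold enrichment from 2 to under 3, 52 of 108 uncounted (48.1%) and 650 of 6447 counted intervals (10.1%) were in all 8 libraries. From 3 to under 4 it was 120 of 216 (55.6%) and 5248 of 15012 (35.0%), and from 4 to under 5 it was 149 of 165 (90.3%) and 3684 of 4070 (90.5%).

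The next comparison asked whether the uncounted intervals differ between Sd/Sd and WT tailbuds, which the count tables cannot show. Per library, 549, 531, 524 and 548 uncounted intervals had a peak in WT 1 to 4, and 557, 528, 539 and 552 in Sd/Sd 1 to 4. The means were 538 ± 12.5 and 544 ± 13.1 (SD, n = 4 each), a difference of 6, smaller than either SD. Peak presence in these libraries chose the intervals, and the 437 with a peak in all 8 cannot differ, so this number, its share and the summed length are given as descriptions with no test. The number of counted intervals with a peak varied much more, from 15859 to 21757, with a coefficient of variation of 10.5% over the 8 libraries against 2.27% for uncounted ones.

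Relative to all shared intervals of a library, uncounted ones made up 2.96% ± 0.221 in WT and 2.74% ± 0.221 in Sd/Sd (SD, n = 4 each). This share was lowest in Sd/Sd replicate 4, the library with the most peaks (2.47%), and highest in WT replicate 3, that with the fewest (3.20%), and the part of the number of peaks in it was not tested. Their summed length was 653 ± 9.19 kb in WT and 656 ± 10.5 kb in Sd/Sd. The median fold enrichment of their peaks was 3.97 ± 0.108 and 3.90 ± 0.0374 (two-sided exact permutation test, p = 0.314, adjusted over 5 computed comparisons 0.714; the smallest p that 70 arrangements allow is 0.0286). Set against the counted peaks of the same library as a log2 ratio, it was 0.16 ± 0.038 and 0.17 ± 0.027 (exact permutation test, p = 0.571, adjusted 0.714). Neither of these comparisons of fold enrichment passed the threshold of 0.05. With all deposited peaks the uncounted intervals numbered 3028, and those added were almost all uncounted by construction. There the difference in number was 327.5 and that in summed length 257 kb, both given as descriptions. That in median fold enrichment was -0.25 (exact permutation test, adjusted p = 0.0571).

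Interval by interval, a peak in 4 of 4 libraries of either genotype and 0 of 4 of the other was found at 0 of 619 uncounted intervals and at 74 of all 27239 shared intervals (0.272%), of which 66 had the peak in Sd/Sd (0.242% of all) and 8 in WT (0.0294%). The uncounted class held 437 intervals with a peak in all 8 libraries, which can show no such pattern. More Sd/Sd than WT libraries had a peak at 74 uncounted intervals (11.95%), against 27.6% of all shared intervals, and more WT than Sd/Sd libraries at 68 (10.99%), against 13.6%. The balance of the directions was not tested against that of the whole set. Sd/Sd libraries had more deposited peaks in all (25401 ± 3807 against 21564.5 ± 2617, SD, n = 4 each).

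Peaks in Sd/Sd libraries alone occurred at 13 uncounted intervals, against 7.27% of all shared intervals, and peaks in WT libraries alone at 5 (0.808%), against 2.47%. Of the 13, 7 had a peak in 3 Sd/Sd libraries and 6 in 2. The 3-library ones were chr12:89518432-89520142, chr13:65691243-65691816, chr18:43135433-43135713, chr18:82396915-82397738, chr4:88447641-88447892, chr4:146040688-146041135 and chr8:19962555-19963309. Their fold enrichments where a peak was called lay between 2.55 and 4.36. The strongest, chr18:43135433-43135713, had 3.77, 3.57 and 4.36 in Sd/Sd replicates 1, 3 and 4.

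Another 4 of the 619 uncounted intervals had a peak in all libraries of a genotype and in 1 of the other. Of the 26620 counted intervals, 249 had this pattern with Sd/Sd in the lead and 60 with WT in the lead. The pattern was thus not particular to uncounted intervals. The 437 uncounted and 10653 counted intervals with a peak in all 8 libraries cannot show it, and its frequency was not compared between the classes. Among the 4, Sd/Sd led at chr11:3068538-3069765 and chr8:19924265-19924891, both inside the long runs. WT led at chr2:32251045-32251785, with 3.09, 3.20, 3.14 and 2.97 in WT 1 to 4 and 3.00 in Sd/Sd replicate 1. It also led at chr9:21396975-21398030, with 3.38, 3.47, 4.77 and 3.52 in WT and 3.42 in Sd/Sd replicate 1. At both, the enrichment of the lone Sd/Sd peak fell within the WT range. These intervals were chosen after their values were seen.

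A single library set the value of 1 further interval. At chr1:34047077-34047984 the fold enrichment was 21.7 in WT replicate 1 and 2.98 in WT replicate 3, and the other 6 libraries had no peak of q at most 0.05. The same interval had a −log10 q of 123 in WT replicate 1 and 1.504 in WT replicate 3. It was the only uncounted interval with a median fold enrichment of 8 or more that was not in all 8 libraries.

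Where all 8 libraries had a peak, the fold enrichment itself could be compared. The log2 fold enrichment of 11090 such shared intervals, 437 of them uncounted, was centred on the median of the counted intervals in each library and tested with limma. Of all 11090, 0 passed an adjusted p of 0.05 (0% of the tested), and so 0 of the 437 did. An unadjusted p under 0.05 was reached by 26 uncounted intervals (5.95%), 9 higher and 17 lower in Sd/Sd, against 628 of all tested (5.66%). WT and Sd/Sd values stood fully apart at 16 of the 437 (3.66%), against 3.17% of all tested. Both shares are near the background. The median log2 change was -0.0058 over the uncounted intervals and 0.00035 over all tested.

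For each uncounted interval with a peak in all 8 libraries, taken by itself, the 95% interval of the change bounds the difference in fold enrichment. Its 95% bounds lay a median of 0.18 log2 units (1.136-fold) to each side, and for 437 of 437 uncounted intervals they stayed inside a 1.5-fold rise or fall. The largest changes were -0.37 (95% interval -0.56 to -0.18) at chr14:22650033 and 0.30 (0.13 to 0.47) at chr6:83744395, both with an adjusted p of 0.744 in limma. At the former the fold enrichment was 4.72, 4.45, 3.79 and 4.11 in WT 1 to 4 and 3.32, 3.08, 3.63 and 3.08 in Sd/Sd 1 to 4. At the latter it was 3.78, 3.52, 3.74 and 3.60 in WT and 4.29, 4.16, 4.93 and 4.50 in Sd/Sd. The libraries did not overlap in either, and they were chosen for their small p. Fold enrichment is a ratio to a local background, so a change shared by an interval and its surroundings would not appear in it. The uncounted intervals that lacked a peak in some library, among them those with peaks in a single genotype, were not tested and have no such bound. An interval whose peak fell short of the q threshold in any library was thus left out beforehand. The bounds therefore do not cover a gain or loss of peaks.

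**Figure D5:**
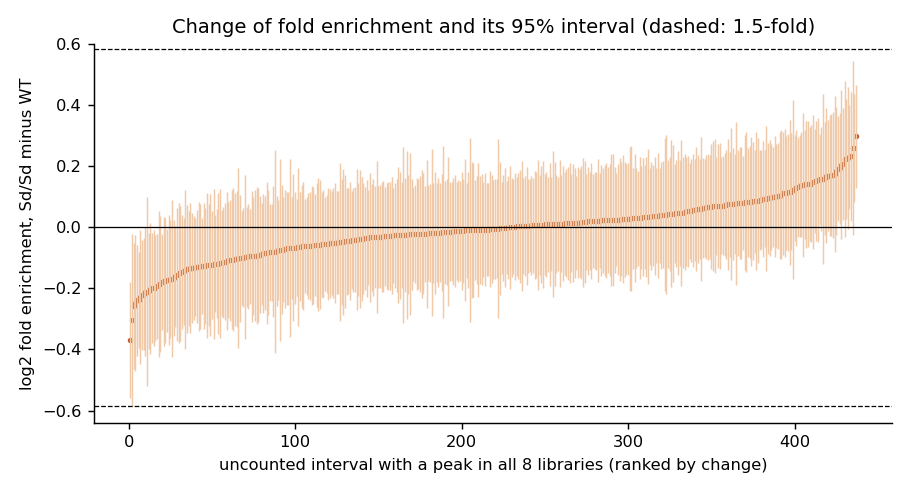
Difference in log2 fold enrichment between Sd/Sd and WT (y axis, points, lines are 95% intervals) for the 437 uncounted intervals with a peak in all 8 libraries, ranked by the difference (x axis). The differences run from -0.37 to 0.30, and all 437 intervals lie between the dashed lines at a 1.5-fold change.

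The 4 uncounted intervals nearest to the Danforth insertion on chromosome 2, between 10 and 30 Mb, showed no separation of the genotypes. At chr2:22599739-22600746 the fold enrichment was 5.60, 5.41, 5.71 and 5.45 in WT 1 to 4 and 5.30, 5.27, 5.88 and 4.98 in Sd/Sd 1 to 4. At chr2:25079781-25080951 it was 4.11, 4.05, 3.62 and 3.96 in WT and 4.16, 4.33, 4.17 and 4.05 in Sd/Sd. At chr2:25187943-25188684 and chr2:25995378-25996293 WT replicate 2 had no peak, and the values of the other 7 libraries overlapped between the genotypes.

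The count tables do cover the surroundings. Within 10 kb of an uncounted interval lay 154 counted regions (0.579% of all counted regions), with a median of 115 counts per kb and library against 110 for the other counted regions. They took 0.618%, 0.662%, 0.645% and 0.611% of the counts in WT 1 to 4 and 0.599%, 0.610%, 0.592% and 0.571% in Sd/Sd 1 to 4. The groups did not overlap, although the lowest WT and the highest Sd/Sd library were almost level. The means of 0.634% ± 0.0240 and 0.593% ± 0.0164 (SD, n = 4 each) differed by -0.041 percentage points (exact permutation test, two-sided, p = 0.0286, the smallest possible), and adjusted over the 6 genotype comparisons the p was 0.171. The share was lowest in the library with the highest total count, and the part of depth in this result was not tested.

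At the edge of the rule, the uncounted intervals with the lowest −log10 q in their second-best library were chr16:3247329-3248027 (1.303), chr2:177387121-177387593 (1.380) and chr1:90108676-90109192 (1.394), each with a peak in 2 libraries. Just outside, the intervals chr1:142874011-142874559, chr9:88256999-88257758 and chr9:64026913-64027362 reached 1.30099, 1.30095 and 1.30091 in their second-best library, just short of the −log10 of 0.05.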

How the data were processed

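The submitters' processing notes list the mm9 build and, with no order or settings, MACS2 2.1.1.20160309, bedtools 2.26.0, SAMtools, Picard, BWA 0.7.15-r1140, bcl2fastq 2.17.1.14 and CASAVA. Filters on reads or regions are not stated by any source used here. Per the deposited tables, 1 set of regions was counted in all 8 libraries as whole-number counts without normalization, and peaks were listed separately for each library. For a peak the authors deposited a score (unused here), a ratio called fold enrichment, and −log10 values of p (unused) and of q. The largest deposited q was 0.0997, so weaker peaks were not analysed here.

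Merging, uncounted intervals and runs were computed in Python 3.11.15 with pandas 2.3.3, and bounds are printed 1-based. Of the 26620 counted regions, 26608 had exactly the bounds of a shared interval. In a library an interval's fold enrichment is the highest of its peaks there, and an interval's median is taken over all its peaks. Values per library were compared between genotypes by exact permutation tests over 70 arrangements and between classes by exact sign flips over 256, adjusted by the Benjamini-Hochberg method. Fold enrichment per interval was tested with limma 3.58.1 in R 4.3.3, checked on simulated data. Total counts stand for depth. No library pair of a genotype agreed within counting noise (chi-square per region of 2.18 or more).

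Named intervals are the 10 of highest median fold enrichment in 8 libraries, the 5 widest, those with a peak in 4 of 4 against 0 of 4 libraries, the 3 longest runs and those nearest to the threshold. Any others were chosen after their values were seen. The limma test, the counts near uncounted intervals and their alternatives were added after seeing the data, and the intervals and rules were chosen with earlier results of these data known.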

Additional observations from a re-analysis of the deposited data

Results flagged for a closer look

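In 6 of 54 sets of 4 same-genotype values, the highest or lowest value was separated from the rest by most of the range, where chance gives about 1 in 20. All 6 concern the fold enrichment of single uncounted intervals. At chr6:103598954-103599386 Sd/Sd replicate 1 had 22.3882 against 22.1411 to 22.1599 in the remaining 3, a gap that is small beside the level. At chr16:91534735-91535040 the same library had 19.9968 against 17.3 to 17.7. At chr17:36368098-36368649 Sd/Sd replicate 3 had 14.2157 against 15.04 to 15.13. Sd/Sd replicate 4 was the low library at chr11:3042308-3048004, with 1.37089 against 1.43, and at chr8:19924265-19924891, with 1.80527 against 2.09 to 2.14. At chr9:21396975-21398030 WT replicate 3 had 4.76766 against 3.38 to 3.52 in the remaining 3.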

How the results depend on the processing

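Of 163 values recomputed under alternatives, none took a genotype comparison past the threshold of 0.05. Many of the 163 could not do so. Some are counts with no p or compare the classes, and the autosome setting repeats the main one. The exact sign flips of the replicate block reach no p below 0.125. The 163 are thus not that many chances to find a difference. With all deposited peaks both comparisons of fold enrichment came to an adjusted p of 0.0571 by exact permutation, from 0.714. The number, share and summed length stay descriptions here too, since peak presence chose the intervals. All deposited peaks bring in intervals of q between 0.05 and 0.1, almost all uncounted by construction. With them the uncounted intervals numbered 3028, and 1 of these had a peak in all libraries of a genotype and in none of the other. Under that setting the difference in number was 327.5, that in summed length 257 kb and that in fold enrichment -0.25, the difference in the uncounted share turned to 0.95 percentage points and that in the log2 ratio of fold enrichment to -0.081, while uncounted peaks became lower than counted ones (-0.27, log2), with a log2 width ratio of -0.0056 (exact sign-flip permutation test, adjusted p = 0.867). With the same number of peaks from each library (17459), the difference in the number of uncounted intervals turned to -13.75 and that in summed length to -16.5 kb, and with peaks of q at most 0.01 the summed length turned to -4.68 kb. Leaving out each library in turn, the number of uncounted intervals lay between 609 and 614, the difference in number between 1 and 12.25, that in share between -0.295 and -0.11 percentage points, that in fold enrichment between -0.12 and -0.038, that in summed length between -1.33 and 7.71 kb (below 0 without WT replicate 2 or Sd/Sd replicate 1), the difference in the log2 ratio between -0.0045 and 0.026 (below 0 without WT replicate 3 or Sd/Sd replicate 4) and the count of genotype-specific uncounted intervals between 0 and 5, the highest without Sd/Sd replicate 2, where 3 libraries of that genotype are enough. The class differences kept their direction and their side of the threshold in each of these 8 settings, with log2 ratios of 0.15 to 0.17 for fold enrichment and 0.36 to 0.38 for width. All 8 libraries had the same direction from the outset, so leaving any of them out could hardly end otherwise and adds no support. In limma 0 uncounted intervals passed with no centring, with quantile scaling, without any single library and with a replicate block. Replicate numbers are not said to mark a litter or day, and same-numbered libraries deviated together by correlations of 0.013 to 0.056 over 11090 intervals. The best-matching Sd/Sd library had the same number for WT 1, 2 and 4, and was Sd/Sd 2 for WT 3. Whether the numbers mark a shared batch was not tested. With the numbers taken as a replicate block, exact sign flips over 16 arrangements, whose smallest p is 0.125, gave the same differences (6 intervals, -0.22 percentage points, 3.28 kb, -0.074 in fold enrichment and 0.013 in the log2 ratio) and no call. Limiting the intervals to the 19 autosomes changed no value. The uncounted intervals numbered 571 with q at most 0.01, 586 with a peak in 3 or more libraries and 625 where a counted region had to cover most of the interval.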
